A study of Mus musculus with 34 samples.

Results

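The Rab genes encode small GTPases of the Ras superfamily, and each is named by the letters Rab, a number and at times a further letter. Members were the protein-coding genes with such symbols in RefSeq (mm10, autosomes 1 to 19 and X), leaving out Rab regulators and effectors with similar names. There were 59 of them among 21627 protein-coding genes. The measure, called covered length here and given in kb, was how much DNA the called peaks spanned inside windows reaching 2.5 kb to each side of the 2 ends of a gene.

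The libraries came from ULI-NChIP-seq, an ultra-low-input native chromatin immunoprecipitation without crosslinking, of microglia from mouse hippocampus. The tested animals were FGR mice, for which the series title names intrauterine growth restriction, and the others were Ctrl mice. Both groups carried the heterozygous Tmem119-tdTomato+/- reporter, which labels cells that express the microglial gene Tmem119. Each group had 4 libraries for each of H3K4me3, H3K9ac, H3K27ac and H3K9me3. The labels gave an age of 3 weeks after birth for replicates 1 to 3 and none for replicate 4. They did not say how growth restriction was induced, how cells were sorted, or whether replicates came from separate animals. The p-values therefore measure only the spread between these libraries, which may be technical.

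Rab proteins cycle between a GDP-bound form in the cytosol and a GTP-bound form on membranes, where they recruit effectors that move, tether and fuse vesicles. Guanine nucleotide exchange factors (GEFs) switch them on and GTPase-activating proteins (GAPs) switch them off. In microglia, the resident macrophages of the brain, the Rabs of endosomes and phagosomes serve the uptake and digestion of debris and synaptic material. Other members serve the Golgi, lysosome-related organelles, or transmitter release at synapses. H3K4me3 marks active promoters, H3K9ac and H3K27ac mark active promoters and enhancers, and H3K9me3 marks heterochromatin.

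By role, 19 members were placed with phagosomes and endosomes, 7 with lysosome-related organelles and secretion, 9 with the endoplasmic reticulum and Golgi, 8 with neurons and 8 with polarity, cilia or epithelia, and 8 were in none of these. Windows of 23 members also held an end of another protein-coding gene, so their peaks cannot be assigned to the Rab gene alone. These included Rab3a with Mpv17l2, Rab5c with Hspb9 and Kcnh4, Rab35 with Bicdl1, Rab1b with Cnih2 and Klc2, and Rab14 with Cntrl.

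The lists of the 2 groups differed in ways that touch every result. FGR H3K4me3 libraries held 43175 to 49045 peaks and Ctrl ones 16598 to 18391. For H3K9ac, FGR libraries held 54853 to 87128 peaks with a median width of 407 to 459 bp, against 42220 to 47729 peaks and 634 to 696 bp in Ctrl. For H3K27ac, FGR libraries held 53492 to 78143 peaks of 314 to 365 bp, against 45988 to 50116 peaks of 825 to 919 bp in Ctrl. Background was inferred from the fold and p of a library's peaks. Its lowest value ran over 0.523 to 1.16 fragments in FGR and 2.35 to 3.58 fragments in Ctrl libraries of these 3 marks. A solution was found for 100% of peaks in these Ctrl libraries. In FGR libraries it was found for 75.8 to 95.2% of H3K4me3, 31.8 to 52.4% of H3K27ac and at most 32.7% of H3K9ac peaks. The FGR values thus rest on part of the peaks and cannot be compared directly with the Ctrl values. Read depths are not in the lists. Over all genes, covered length in FGR libraries labelled H3K4me3 had a mean Pearson r of 0.908 with Ctrl H3K9ac and of 0.822 with Ctrl H3K4me3, and over the 59 Rab genes the values were 0.929 and 0.748. FGR H3K9ac libraries correlated with Ctrl H3K9ac at 0.757 over all genes and 0.719 over the Rab genes. These correlations are across genes, which are not independent replicates. A mix-up of libraries was not tested, so a mark is named below as its library is labelled. All 10 microglial marker genes had H3K4me3 in every FGR library, and 9 of 10 in every Ctrl library, with Gpr34 at 0 in Ctrl, while for H3K9ac Gpr34 was at 0 in FGR.

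Because covered length shifted across the genome, the change of a Rab gene was read against all genes. The median difference, FGR minus Ctrl, over all genes tested was 0.887 kb for H3K4me3, 0.0307 kb for H3K9ac and -0.707 kb for H3K27ac. Among Rab genes, 36 of 54 tested lay above that median for H3K4me3, 23 of 57 for H3K9ac and 18 of 46 for H3K27ac. The Ctrl medians of tested Rab genes were 0.713 kb for H3K4me3, 1.78 kb for H3K9ac and 2.46 kb for H3K27ac. Those of all genes tested were 0.678, 1.31 and 1.72 kb. The comparison is in kb and does not account for a shift in proportion to length.

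Promoter sequence was in the RefSeq table (GRCm38.p6) for 48 of the 59 members. The 250 bases before the start are printed for 3 endosomal or phagosomal members with H3K4me3 in all 8 libraries (Rab20, Rab5c and Rab7), set beside the 3 members with a promoter in the table and H3K4me3 in none (Rab3c, Rab25 and Rab17). Each reads 5′ to 3′ on the strand of its gene, and capitals mark CpG dinucleotides, the sites of DNA methylation that are dense in CpG-island promoters.
Rab20, chr8:11478641-11478890 (- strand): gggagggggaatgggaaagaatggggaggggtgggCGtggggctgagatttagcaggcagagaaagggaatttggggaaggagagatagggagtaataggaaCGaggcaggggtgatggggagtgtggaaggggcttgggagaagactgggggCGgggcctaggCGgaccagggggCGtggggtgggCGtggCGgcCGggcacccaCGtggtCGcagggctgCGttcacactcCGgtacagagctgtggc
Rab5c, chr11:100738216-100738465 (- strand): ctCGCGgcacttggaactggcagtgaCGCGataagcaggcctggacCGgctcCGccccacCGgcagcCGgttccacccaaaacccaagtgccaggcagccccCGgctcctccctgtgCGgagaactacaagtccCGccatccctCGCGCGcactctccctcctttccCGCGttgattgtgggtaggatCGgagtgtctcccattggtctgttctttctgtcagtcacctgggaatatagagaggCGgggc
Rab7, chr6:88045271-88045520 (- strand): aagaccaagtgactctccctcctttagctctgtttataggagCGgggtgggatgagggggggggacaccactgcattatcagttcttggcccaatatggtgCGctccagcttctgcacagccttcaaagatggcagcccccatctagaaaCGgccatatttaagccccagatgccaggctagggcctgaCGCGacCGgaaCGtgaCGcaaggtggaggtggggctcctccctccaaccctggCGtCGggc
Rab3c, chr13:110280207-110280456 (- strand): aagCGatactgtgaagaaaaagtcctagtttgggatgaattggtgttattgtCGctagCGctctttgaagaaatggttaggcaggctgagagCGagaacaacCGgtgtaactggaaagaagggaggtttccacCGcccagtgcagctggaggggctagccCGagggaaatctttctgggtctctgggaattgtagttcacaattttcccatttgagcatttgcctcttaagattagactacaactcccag
Rab25, chr3:88548280-88548529 (- strand): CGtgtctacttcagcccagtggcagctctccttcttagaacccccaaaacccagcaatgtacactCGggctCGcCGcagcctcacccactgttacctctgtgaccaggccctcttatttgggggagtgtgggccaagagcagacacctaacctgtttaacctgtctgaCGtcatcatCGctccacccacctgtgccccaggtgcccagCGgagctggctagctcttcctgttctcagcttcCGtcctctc
Rab17, chr1:90967668-90967917 (- strand): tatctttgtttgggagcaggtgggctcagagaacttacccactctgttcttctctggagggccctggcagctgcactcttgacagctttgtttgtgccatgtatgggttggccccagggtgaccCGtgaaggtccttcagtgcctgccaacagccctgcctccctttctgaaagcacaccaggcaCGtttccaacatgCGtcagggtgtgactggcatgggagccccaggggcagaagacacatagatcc
These stretches held 12, 18 and 10 CpG in Rab20, Rab5c and Rab7, and 7, 8 and 3 CpG in Rab3c, Rab25 and Rab17. Over the full 300 bases (250 before and 50 after the start), the 32 members with H3K4me3 in all 8 libraries held a median of 23 CpG (6 to 43). The 3 members without the mark held 5 (Rab17), 9 (Rab25) and 11 (Rab3c), the first below that range and the others within it. The median over 17273 promoters of all genes was 14 CpG.

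Of 8 motifs searched on both strands of these 300 bases, TCACGTGA, the E-box form bound by the lysosomal regulator TFEB, was in 3 of 48 Rab promoters (Rab21, Rab24 and Rab5a; 6.25%) and in 1.26% of all promoters. The shorter E-box core CACGTG, which TCACGTGA contains, was in 5 Rab promoters (10.4%; 8.01% of all). GAGGAAGT, a site of the type bound by the myeloid factor PU.1, was in 2 Rab promoters (Rab2b and Rab32; 4.17%; 3.17% of all). The Sp box GGGGCGGGG was in 12 (25.0%; 15.7% of all), CCGGAAGT in 2 (4.17%; 5.34% of all), CCAAT in 23 (47.9%; 39.6% of all) and TATAAA in 4 (8.33%; 13.4% of all). TTCAGCACC, part of the RE1 element bound by the neuronal repressor REST, was in 0 of 48 and in 0.417% of all promoters. These matches are descriptions of letters and not of binding.

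Most Rab genes carried all 3 active marks in these cells. In all 24 libraries of H3K4me3, H3K9ac and H3K27ac, 34 of 59 members had a peak of the mark. The share of all genes with this was not counted. Rab3c, a Rab3 form of synaptic vesicles, and Rab27b, a secretory Rab, had no peak of these marks in any library. H3K4me3 was in no library at Rab17 and Rab25, which serve epithelial cells, and at Rab44, a large atypical Rab. H3K27ac was in no library at Rab17, Rab25, Rab3b, Rab38, Rab15, Rab39b and Rab9b. FGR libraries held H3K4me3 peaks at 53 to 54 members, against 44 to 46 members in Ctrl libraries. For H3K9ac, 54 to 57 members had a peak in FGR, against 48 to 51 in Ctrl, and for H3K27ac 42 to 48 in FGR, against 44 to 46 in Ctrl. H3K4me3 peaks in all 4 libraries of a group were at 89.8% of members in FGR and 64.4% in Ctrl. Of all genes, 62.9% and 42.1% had them. For H3K9ac the shares were 91.5% and 79.7% of members, against 62.9% and 53.7% of all genes. For H3K27ac they were 69.5% and 74.6% of members, against 46.0% and 50.3% of all genes. More genes with H3K4me3 and H3K9ac in FGR were thus found across the genome.

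In the windows at gene ends, H3K4me3 was found at 4 of 59 members in all 4 FGR and 0 of 4 Ctrl libraries, against 6.11% of 21627 genes, so the count was near the background. These were Rab36, Rab33a, Rab39b, a gene of neurons that is mutated in X-linked intellectual disability, and Rab9b. H3K9ac did the same at 3 members, Rab36, Rab44 and Rab9b, against 6.04% of all genes. No member showed the reverse for any of the 3 marks. Rab33a is the 1 member whose start in the promoter table lies outside its windows, 5.62 kb inside the gene record. Within 2.5 kb of that start, its H3K4me3 was 1.1 ± 0.0841 kb in FGR and 0.196 ± 0.229 kb in Ctrl (SD, n = 4 each), so the mark was not absent from Ctrl there.

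**Figure D1:**
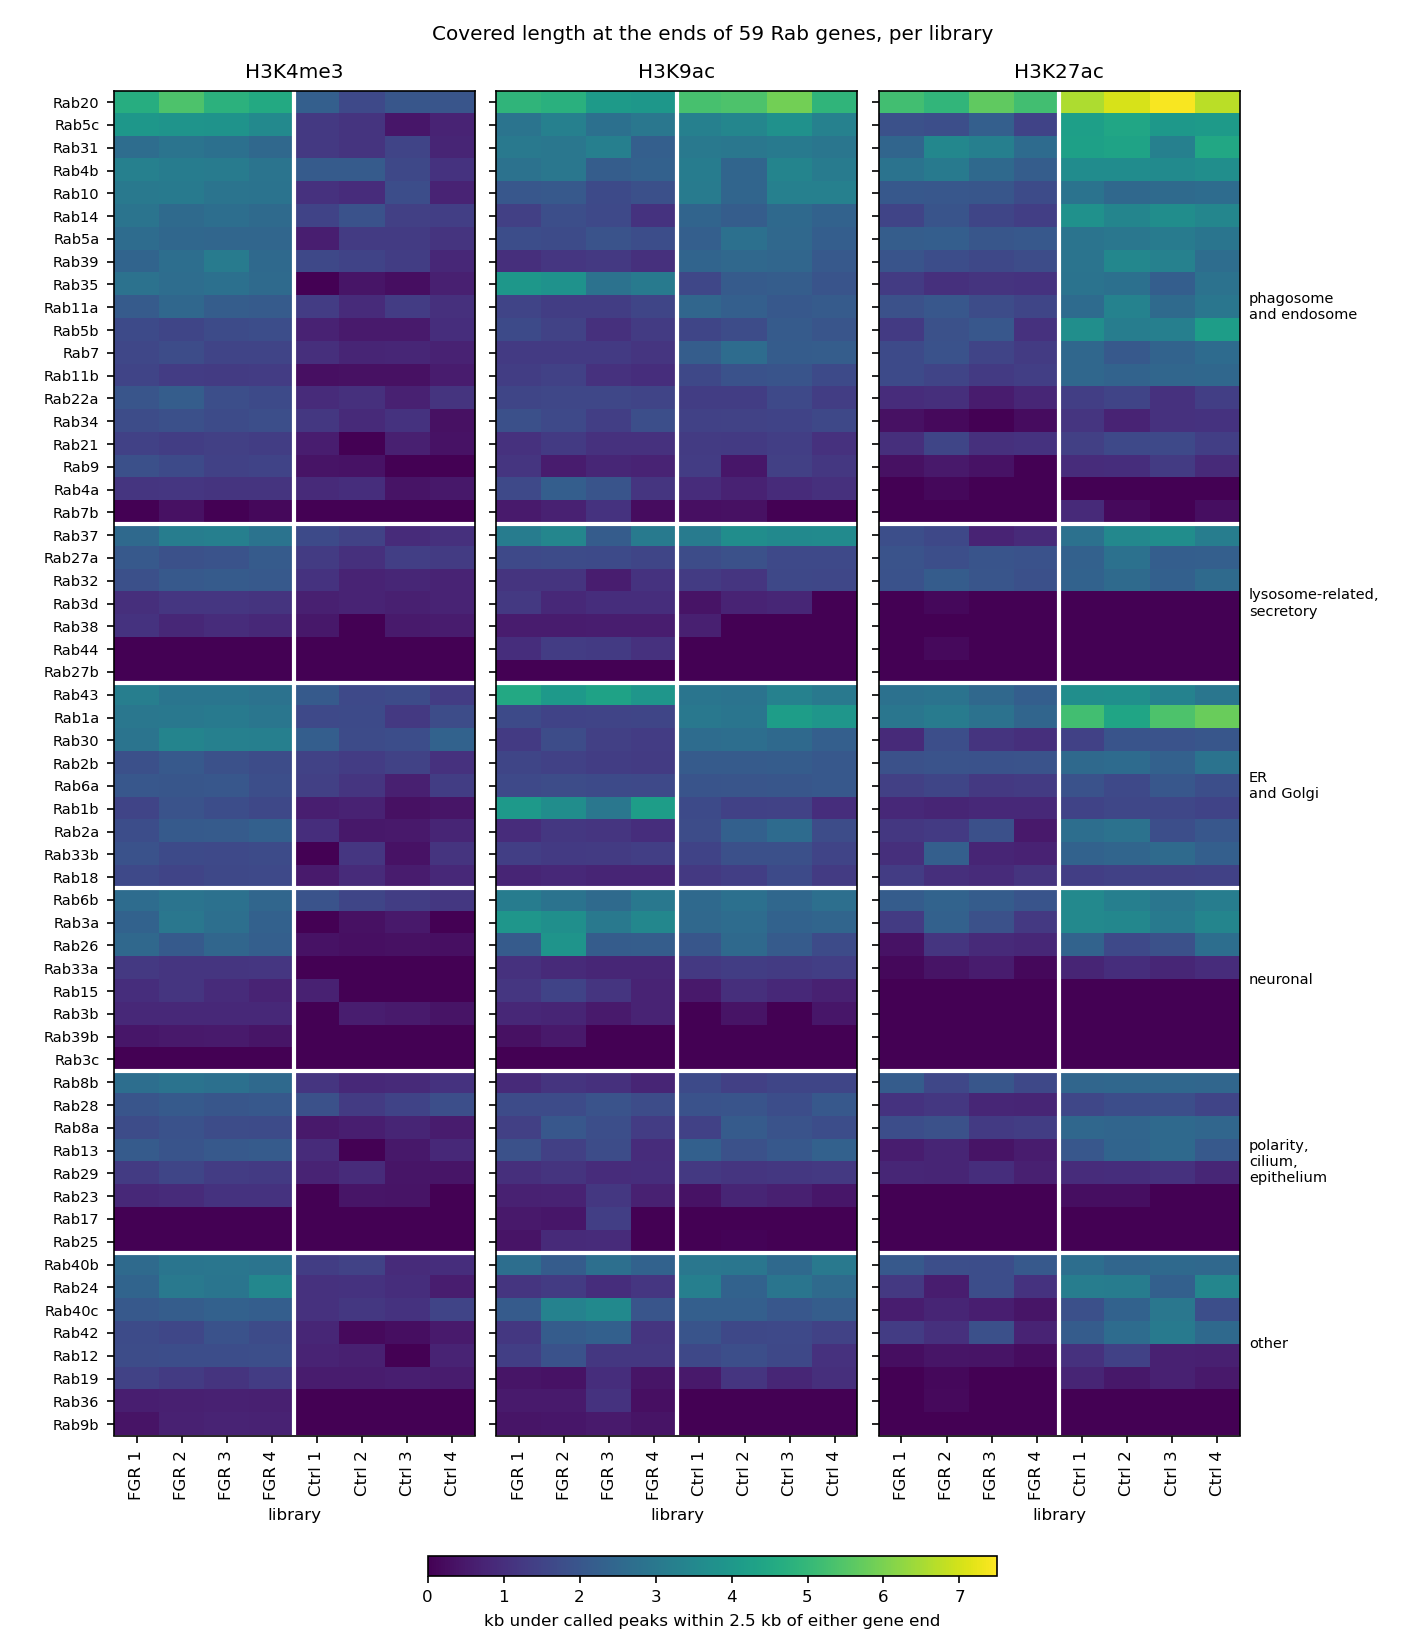
Covered length in kb (colour) within 2.5 kb of the ends of 59 Rab genes (rows, grouped by role) in each library (columns), with 4 FGR libraries left of 4 Ctrl libraries for each mark. Rab20 is the top row in all 3 panels, and H3K4me3 is longer in FGR at nearly every row. H3K27ac has a lower mean in FGR at the 46 members tested, and 9 rows are at 0 in every library. Rab44, Rab36, Rab4a and Rab3d have H3K27ac means of at most 0.047 kb in FGR and 0 kb in Ctrl. After quantile normalization the H3K4me3 and H3K27ac directions hold for some members and turn for others.

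Rab20 had the longest covered length of all members for each active mark in FGR libraries, and for H3K9ac and H3K27ac in Ctrl libraries. Rab20 is a Rab of phagosomes and endosomes that is induced in macrophages. It had 5.23, 4.93, 5.66 and 5.22 kb in the 4 FGR libraries, against 6.58, 7.04, 7.42 and 6.71 kb in the 4 Ctrl libraries for H3K27ac, so all FGR libraries lay below all Ctrl libraries. Its mean H3K27ac length exceeded that of 99.8% of all genes in FGR and 99.4% in Ctrl. The H3K27ac difference was -1.68 ± 0.207 kb (SE; limma adjusted p = 7.48e-05), and after quantile normalization it turned to 0.896 kb.

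For H3K4me3, Rab20 had 4.67, 5.41, 4.82 and 4.55 kb in the 4 FGR libraries, against 2.27, 1.65, 2.02 and 1.97 kb in the 4 Ctrl libraries. FGR libraries were all longer, by 2.88 ± 0.20 kb (SE; limma adjusted p = 3.01e-06). Its H3K9ac was shorter in FGR, with 4.44 ± 0.475 kb in FGR and 5.39 ± 0.409 kb in Ctrl (SD, n = 4 each) and a difference of -0.949 ± 0.27 kb (SE; limma adjusted p = 0.0149). At the gene start alone that difference was -0.130 kb and no longer passed (adjusted p = 0.580).

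For H3K4me3, 53 of the 54 Rab genes tested were longer in FGR than in Ctrl (limma, Benjamini-Hochberg over all genes tested, threshold 0.05), and 0 had a lower mean in FGR. Across the genome 95.5% of the 14040 genes tested were longer and 0% shorter in FGR, so the count among Rab genes was near the background. After quantile normalization, 12 members were longer and 5 shorter in FGR, against 20.8% and 18.6% of all genes. The median difference over the tested members was 1.15 kb. The exception was Rab7b, a late-endosome relative of Rab7, at 0, 0.327, 0 and 0.159 kb in the 4 FGR libraries, against 0 kb in each of the 4 Ctrl libraries (adjusted p = 0.199).

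Among the members with the smallest p was Rab5c, an early-endosome Rab. It had 3.96, 3.89, 3.85 and 3.53 kb in the 4 FGR libraries, against 1.25, 1.14, 0.463 and 0.749 kb in the 4 Ctrl libraries, and the difference was 2.91 ± 0.181 kb (SE; limma adjusted p = 1.84e-06). Rab35, which acts in endocytic recycling and phagosome formation, had 2.83, 2.68, 2.77 and 2.6 kb in the 4 FGR libraries, against 0, 0.415, 0.29 and 0.673 kb in the 4 Ctrl libraries. Its difference was 2.37 ± 0.137 kb (SE; limma adjusted p = 1.32e-06), and no FGR library overlapped a Ctrl library at either gene.

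Rab8b, a Rab of polarized membrane traffic, had 2.7, 2.87, 2.75 and 2.58 kb in the 4 FGR libraries, against 1.15, 0.853, 0.883 and 1.1 kb in the 4 Ctrl libraries. Rab26, which sits on secretory granules and synaptic vesicles, had 2.54, 2.12, 2.46 and 2.27 kb in the 4 FGR libraries, against 0.375, 0.30, 0.342 and 0.301 kb in the 4 Ctrl libraries. Rab33a, a Golgi-related Rab of neurons, had 1.23, 1.16, 1.15 and 1.17 kb in the 4 FGR libraries, against 0 kb in each of the 4 Ctrl libraries. The 3 differences were 1.73 ± 0.0988 kb (SE; limma adjusted p = 1.28e-06), 2.02 ± 0.0986 kb (SE; limma adjusted p = 6.94e-07) and 1.18 ± 0.0591 kb (SE; limma adjusted p = 7.62e-07). In all of these genes the groups were apart, and Rab26 and Rab33a share their windows with Traf7 and Aifm1.

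Of the 19 phagosome and endosome members, 18 had longer H3K4me3 in FGR. The median over the 19 was 2.14 to 2.5 kb in FGR libraries and 0.758 to 1.01 kb in Ctrl libraries. Of the 7 neuronal members tested, 7 had longer H3K4me3 in FGR, with a median over all 8 of 1.02 to 1.16 kb in FGR and 0 to 0.171 kb in Ctrl libraries. The eighth, Rab3c, was at 0 throughout. Within the Rab3 family, Rab3a, the main Rab of synaptic vesicles, had 2.35, 2.98, 2.73 and 2.34 kb in the 4 FGR libraries, against 0, 0.351, 0.518 and 0 kb in the 4 Ctrl libraries. Rab3b had 0.867 ± 0.00978 kb in FGR and 0.389 ± 0.273 kb in Ctrl (SD, n = 4 each) and Rab3d, a Rab of secretory granules, had 1.13 ± 0.0787 kb in FGR and 0.699 ± 0.0521 kb in Ctrl (SD, n = 4 each). Rab3a kept its direction after quantile normalization (1.48 kb), while Rab3b turned to -0.309 kb and Rab3d to -0.480 kb (adjusted p = 0.0022).

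Beside these neuronal genes, the 8 neuron markers summed to 1.45 to 2.4 kb of H3K4me3 in FGR and 0 to 0.720 kb in Ctrl libraries. Their H3K9ac summed to 4.13 to 6.96 kb in FGR and 0.325 to 0.709 kb in Ctrl, and their H3K27ac to 0 to 0.364 kb in FGR and 0 kb in Ctrl. Snap25 and Gad1 were at 0 in all of these libraries. The 7 markers of the oligodendrocyte lineage summed to 4.15 to 5.2 kb of H3K4me3 in FGR and 0.854 to 1.22 kb in Ctrl, and the 6 endothelial and mural markers to 7.21 to 8.37 kb in FGR and 1.91 to 2.89 kb in Ctrl. The 10 microglial markers summed to 43.5 to 49.6 kb of H3K4me3 in FGR and 19.1 to 23.0 kb in Ctrl. Microglial markers had less of both acetyl marks in FGR, with 27.9 to 30.5 kb of H3K9ac in FGR and 46.5 to 50.045 kb in Ctrl, and 43.9 to 52.5 kb of H3K27ac in FGR and 81.0 to 82.6 kb in Ctrl. Markers of all these cell types thus had longer H3K4me3 in FGR. So did those of astrocytes (5.42 to 6.2 kb, against 2.4 to 2.77 kb in Ctrl) and of lymphocytes and neutrophils. Oligodendrocyte markers also had longer H3K9ac in FGR, at 4.57 to 8.28 kb, against 1.53 to 3.36 kb in Ctrl. H3K9ac of astrocyte markers overlapped, at 3.38 to 6.36 kb in FGR and 3.82 to 5.75 kb in Ctrl. It also overlapped for endothelial and mural, and for lymphocyte and neutrophil, markers. The part of these markers in the results was not tested. Fewer cells of a type and a shorter mark per cell cannot be told apart in bulk libraries.

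The order of H3K4me3 lengths among well-known members held in part between the groups. In FGR, Rab20 ranked first of 59, Rab5c second, Rab31 13th, Rab3a 17th and Rab7 39th. In Ctrl, Rab20 ranked second, Rab31 15th, Rab5c 23rd, Rab7 26th and Rab3a 46th. Rab31 had 2.71 ± 0.152 kb in FGR and 1.17 ± 0.32 kb in Ctrl (SD, n = 4 each), and Rab14 had 2.69 ± 0.136 kb in FGR and 1.55 ± 0.224 kb in Ctrl (SD, n = 4 each). Both serve endosomes, and in FGR they differed from each other by less than their spread.

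**Figure D2:**
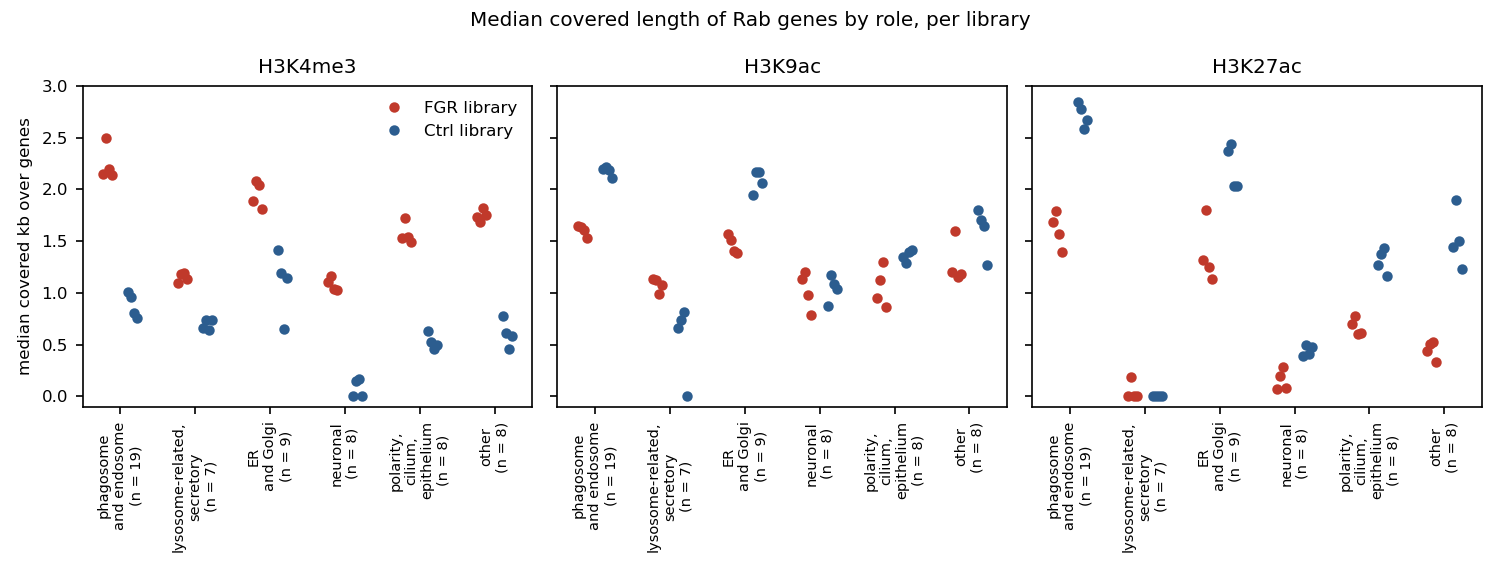
Median covered length (kb) over the Rab genes of each role, per library (points), with FGR left of Ctrl; n is the number of genes. For H3K9ac, phagosome and endosome members have medians of 1.53 to 1.65 kb in FGR and 2.11 to 2.22 kb in Ctrl libraries, while the neuronal medians of both groups overlap.

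H3K9ac moved both ways. Of 57 Rab genes tested, 13 were longer and 22 shorter in FGR, against 28.5% longer and 30.0% shorter of 15601 genes tested. After quantile normalization 7 members were longer and 19 shorter, against 25.9% and 31.0% of all genes. The phagosome and endosome group held 3 longer members (Rab35, Rab4a and Rab7b) and 10 shorter ones (Rab5a, Rab5b, Rab5c, Rab7, Rab10, Rab11a, Rab11b, Rab14, Rab20 and Rab39) of 19. The neuronal group held 2 longer (Rab3a and Rab3b) and 1 shorter (Rab33a) of 7 tested. The Rab33a call came from windows shared with Aifm1, and within 2.5 kb of its start in the promoter table H3K9ac went the other way, with 0.913 ± 0.271 kb in FGR and 0.308 ± 0.383 kb in Ctrl (SD, n = 4 each). Whether the groups of genes differ from each other was not tested.

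Endoplasmic reticulum and Golgi members held 2 longer (Rab1b and Rab43) and 7 shorter of 9. Lysosome-related and secretory members held 3 longer (Rab3d, Rab38 and Rab44) and 1 shorter (Rab32) of 6 tested. Rab32 and Rab38 are closely related Rabs that serve melanosomes and other lysosome-related organelles. Rab32 had 1.14, 1.12, 0.611 and 1.1 kb in the 4 FGR libraries, against 1.31, 1.16, 1.64 and 1.59 kb in the 4 Ctrl libraries, and Rab38 had 0.583, 0.561, 0.596 and 0.589 kb in the 4 FGR libraries, against 0.659, 0, 0 and 0 kb in the 4 Ctrl libraries. Rab38 thus had H3K9ac in all FGR libraries and in 1 Ctrl library, which was the highest of all, and the groups overlapped (adjusted p = 0.0457). Leaving out 1 library ended the call of Rab32 in 7 of 8 cases (all but Ctrl replicate 2), that of Rab38 in 7 of 8 (all but Ctrl replicate 1) and that of Rab3d in 5 of 8 (FGR replicates 1, 3 and 4, Ctrl replicates 1 and 4), and quantile normalization ended those of Rab32, Rab38 and Rab3d (adjusted p = 0.0640, 0.544 and 0.134). Of all settings other than leaving out 1 library, 8 of 8 ended the Rab3d call, 5 of 8 that of Rab32 and 4 of 7 that of Rab38. Rab27a, the secretory-lysosome Rab, had 1.66 ± 0.0671 kb in FGR and 1.73 ± 0.0989 kb in Ctrl (SD, n = 4 each) and did not pass (adjusted p = 0.512).

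Rab7, the Rab of late endosomes and lysosomes, had 1.28, 1.27, 1.29 and 1.16 kb in the 4 FGR libraries, against 2.2, 2.66, 2.19 and 2.22 kb in the 4 Ctrl libraries of H3K9ac. All FGR libraries were below all Ctrl libraries, and the difference was -1.07 ± 0.123 kb (SE; limma adjusted p = 0.000155). Rab39, which acts in phagosome maturation, had 1.02, 1.18, 1.25 and 1.05 kb in the 4 FGR libraries, against 2.41, 2.53, 2.47 and 2.11 kb in the 4 Ctrl libraries, a difference of -1.26 ± 0.117 kb (SE; limma adjusted p = 4.98e-05). At Rab39, too, every FGR library lay below every Ctrl library. Rab14 was shorter as well, with a difference of -0.894 ± 0.159 kb (SE; limma adjusted p = 0.00144), but within 1 kb of the gene ends the difference was -0.0663 kb and did not pass (adjusted p = 0.655). The 3 Rab5 genes of early endosomes differed by -0.651 ± 0.133 kb (SE; limma adjusted p = 0.00298) for Rab5a, -0.483 ± 0.172 kb (SE; limma adjusted p = 0.0381) for Rab5b and -0.479 ± 0.152 kb (SE; limma adjusted p = 0.0239) for Rab5c. The calls of Rab5b and Rab5c ended after quantile normalization (adjusted p = 0.0743 and 0.0842) and without 1 library. For Rab5b this was so for FGR replicates 3 and 4 and Ctrl replicates 2, 3 and 4, and for Rab5c for FGR replicates 1 and 3 and Ctrl replicate 3. The Rab5a call was kept under each of these. Rab31, a Rab5-related gene of endosomes, did not pass at 2.88 ± 0.418 kb in FGR and 3.0 ± 0.0601 kb in Ctrl (SD, n = 4 each) (adjusted p = 0.598).

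Rab24, which takes part in autophagy, had 1.17, 1.3, 0.971 and 1.2 kb in the 4 FGR libraries, against 3.25, 2.35, 2.9 and 2.6 kb in the 4 Ctrl libraries. Rab30 and Rab2b, both Golgi Rabs, had 1.44 ± 0.203 kb in FGR and 2.55 ± 0.20 kb in Ctrl (SD, n = 4 each) and 1.42 ± 0.115 kb in FGR and 2.14 ± 0.0471 kb in Ctrl (SD, n = 4 each). The differences were -1.61 ± 0.187 kb (SE; limma adjusted p = 0.000154), -1.11 ± 0.14 kb (SE; limma adjusted p = 0.000241) and -0.719 ± 0.0917 kb (SE; limma adjusted p = 0.000254). The FGR and Ctrl libraries did not overlap at these genes, and Rab24 shares its window with Nsd1 and Prelid1, Rab2b with Tox4.

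Among members with longer H3K9ac in FGR, Rab44 had 0.972, 1.32, 1.27 and 1.07 kb in the 4 FGR libraries, against 0 kb in each of the 4 Ctrl libraries. Its difference was 1.16 ± 0.102 kb (SE; limma adjusted p = 3.68e-05), and it had no H3K4me3 in any library. Rab9b, a relative of the late-endosome Rab9, had 0.436, 0.462, 0.532 and 0.389 kb in the 4 FGR libraries, against 0 kb in each of the 4 Ctrl libraries. Both genes thus had the mark in FGR libraries and not in Ctrl libraries. Rab3b had 0.835, 0.783, 0.528 and 0.756 kb in the 4 FGR libraries, against 0, 0.381, 0 and 0.457 kb in the 4 Ctrl libraries (adjusted p = 0.0112), and its call ended after quantile normalization (adjusted p = 0.264). Rab7b had 0.536, 0.701, 1.09 and 0.26 kb in the 4 FGR libraries, against 0.311, 0.351, 0 and 0 kb in the 4 Ctrl libraries (adjusted p = 0.0463). Its groups overlapped, and its call ended in 7 of 8 cases of leaving out 1 library (all but FGR replicate 4) and after quantile normalization (adjusted p = 0.475).

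For H3K27ac, 43 of 46 Rab genes tested were shorter in FGR, and 0 had a higher mean in FGR. Over all 11874 genes tested, 81.6% were shorter and 0.194% longer. After quantile normalization 11 members were longer and 8 shorter in FGR, against 12.3% and 11.4% of all genes. The phagosome and endosome group held 17 shorter members of 18 tested, and the neuronal group 4 of 4. Of these 4 neuronal members, Rab3a, Rab26 and Rab33a share their windows with Mpv17l2, Traf7 and Aifm1. Within 2.5 kb of its start in the promoter table, Rab33a had 0 kb of H3K27ac in both groups. Medians over the phagosome and endosome members were 1.39 to 1.80 kb in FGR and 2.59 to 2.85 kb in Ctrl libraries.

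Rab5c had 1.87, 1.8, 2.26 and 1.51 kb in the 4 FGR libraries, against 4.22, 4.43, 4.01 and 4.09 kb in the 4 Ctrl libraries of H3K27ac. The difference was -2.33 ± 0.166 kb (SE; limma adjusted p = 4.71e-06), and it stayed negative after quantile normalization (-0.930 kb). Rab14 had 1.55, 1.94, 1.57 and 1.4 kb in the 4 FGR libraries, against 3.78, 3.41, 3.68 and 3.45 kb in the 4 Ctrl libraries, a difference of -1.97 ± 0.142 kb (SE; limma adjusted p = 5.01e-06), which was -0.719 kb after quantile normalization. Both Rab5c and Rab14 act on endosomes, and their groups did not overlap. Rab13, a Rab of tight junctions, had 0.589, 0.764, 0.384 and 0.566 kb in the 4 FGR libraries, against 2.03, 2.42, 2.55 and 2.08 kb in the 4 Ctrl libraries. Rab35 had 1.3, 1.04, 1.12 and 1.09 kb in the 4 FGR libraries, against 2.85, 2.78, 2.25 and 2.83 kb in the 4 Ctrl libraries. Rab11b, a recycling-endosome Rab, had 1.69, 1.54, 1.27 and 1.39 kb in the 4 FGR libraries, against 2.5, 2.4, 2.47 and 2.5 kb in the 4 Ctrl libraries, and its difference of -0.994 ± 0.112 kb (SE; limma adjusted p = 4.32e-05) turned to 0.0226 kb after quantile normalization. At Rab13, Rab35 and Rab11b as well, every FGR library was below every Ctrl library.

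Rab7 and Rab5a had shorter H3K27ac in FGR, with 1.61 ± 0.242 kb in FGR and 2.4 ± 0.23 kb in Ctrl (SD, n = 4 each) for Rab7 and 2.13 ± 0.109 kb in FGR and 2.97 ± 0.104 kb in Ctrl (SD, n = 4 each) for Rab5a, and after quantile normalization the differences turned to 0.244 and 0.433 kb. Rab27a, Rab31 and Rab32 also turned, to 0.602, 0.469 and 0.664 kb. Rab3a had 1.31, 2.32, 1.85 and 1.25 kb in the 4 FGR libraries, against 3.52, 3.46, 3.09 and 3.43 kb in the 4 Ctrl libraries, the only Rab3 gene with H3K27ac in more than 1 library. Rab3d had 0.149 kb in 1 FGR library and 0 in the other libraries.

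**Figure D3:**
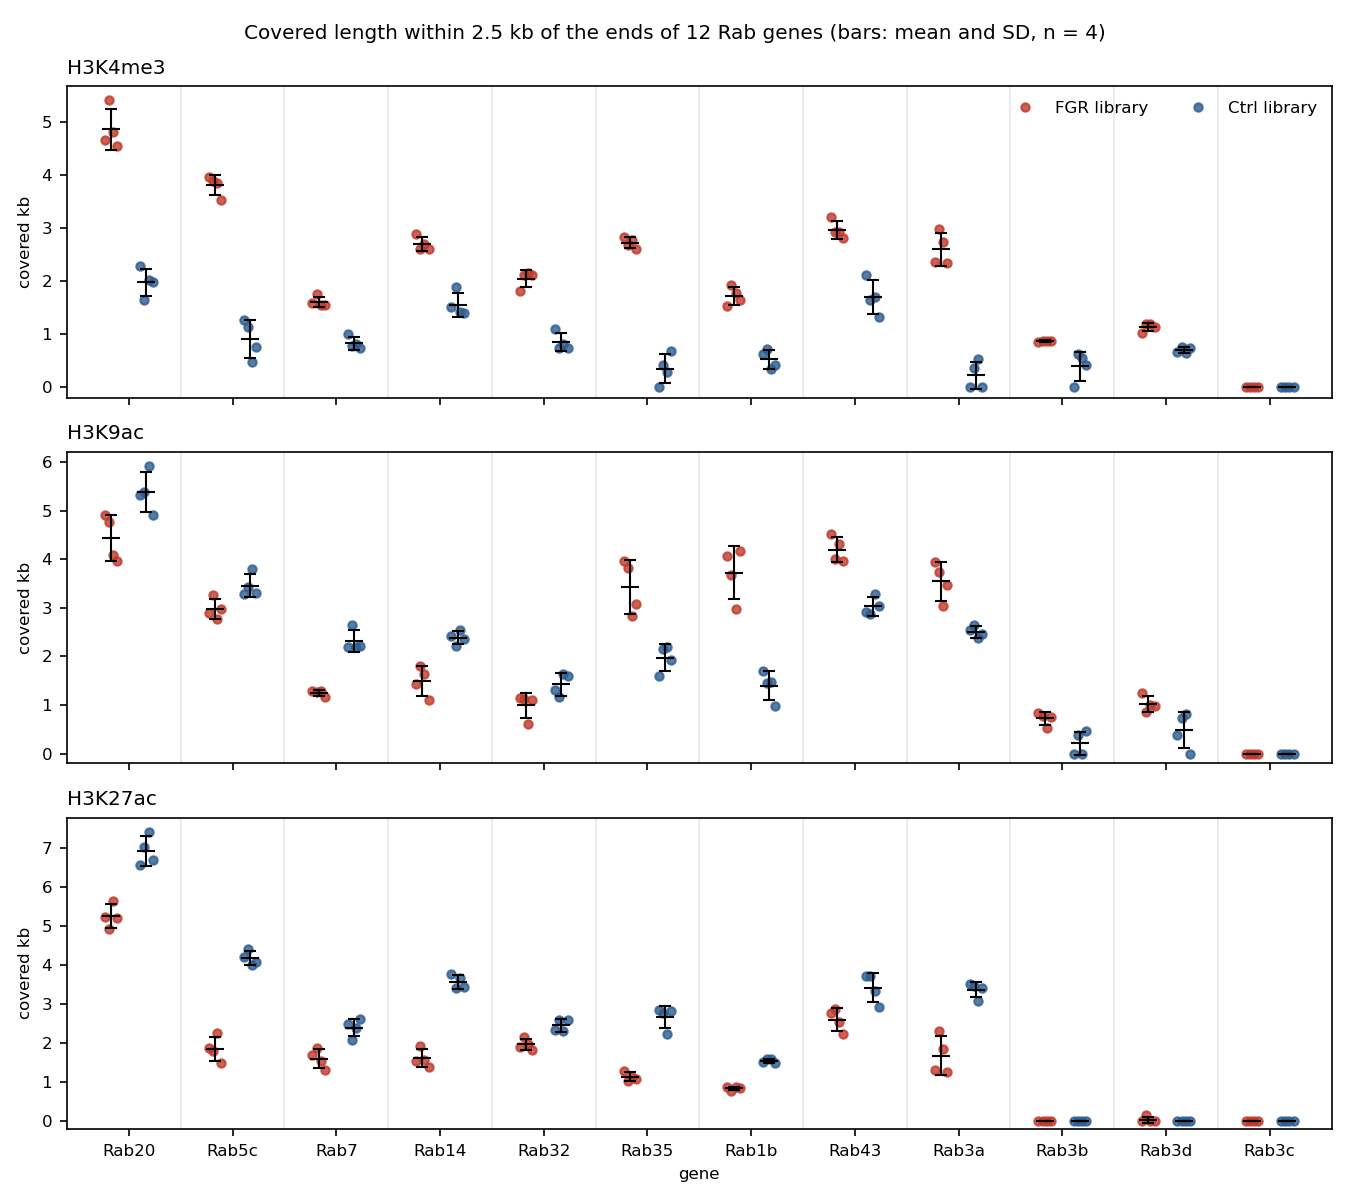
Covered length (kb) at 12 Rab genes in every library (points), FGR left of Ctrl, with the mean and SD of 4 libraries (black). H3K4me3 points of FGR lie above those of Ctrl at 11 genes and H3K27ac points below at 9. Of all genes tested, 95.5% were called longer in FGR for H3K4me3 and 81.6% shorter for H3K27ac. The share of all genes without overlap was not counted. After quantile normalization the H3K27ac directions of Rab20, Rab7, Rab32, Rab43 and Rab1b turn, as do the H3K4me3 directions of Rab7, Rab14, Rab43, Rab3b and Rab3d. H3K9ac is longer in FGR at Rab35, Rab1b, Rab43, Rab3a, Rab3b and Rab3d, and Rab3c is at 0 throughout.

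Across the 3 marks, 22 of 46 members tested in all of them had longer H3K4me3, shorter H3K9ac and shorter H3K27ac in FGR, among them Rab5a, Rab5b, Rab5c, Rab7, Rab14, Rab20 and Rab32. Of 11426 genes tested in all 3 marks, 36.7% had this pattern. A further 17 members differed the same way in H3K4me3 and H3K27ac without passing for H3K9ac, against 33.3% of all genes. In 4 members, Rab1b, Rab35, Rab3a and Rab43, H3K4me3 and H3K9ac were longer and H3K27ac shorter in FGR, against 12.2% of all genes. After quantile normalization all 4 H3K9ac calls were made again, but for H3K27ac only Rab35 was still called shorter (-0.564 kb, adjusted p = 0.0166). Rab43 was then called longer (0.637 kb, adjusted p = 0.0199), and Rab3a (-0.471 kb, adjusted p = 0.152) and Rab1b (0.00798 kb, adjusted p = 0.967) did not pass.

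The difference of the H3K27ac change from the H3K9ac change was tested as an interaction over 16 libraries. It passed the threshold below 0 in 21 of 46 Rab genes tested and above 0 in 0, with 0 above at an unadjusted p under 0.05 as well (limma). Estimates above 0 that did not pass included Rab30 (0.491 kb) and Rab10 (0.411 kb). Over 11723 genes, 48.6% were called below and 4.97% above. After quantile normalization 19 members were called above and 8 below, against 34.4% and 20.1% of all genes. Calls in opposite directions with the interaction past the threshold were made at 4 of 46 members (8.70%), against 12.4% of all genes.

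Rab1b, which acts between the endoplasmic reticulum and Golgi, had 4.07, 3.67, 2.98 and 4.18 kb in the 4 FGR libraries, against 1.69, 1.45, 1.47 and 0.989 kb in the 4 Ctrl libraries of H3K9ac. It had 0.868, 0.788, 0.87 and 0.861 kb in the 4 FGR libraries, against 1.52, 1.61, 1.59 and 1.5 kb in the 4 Ctrl libraries of H3K27ac. The interaction was -3.03 ± 0.288 kb (SE; adjusted p = 6.41e-07). Every FGR library was above every Ctrl library for H3K9ac and below it for H3K27ac.

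Rab35 had 3.97, 3.82, 2.83 and 3.08 kb in the 4 FGR libraries, against 1.59, 2.16, 2.2 and 1.93 kb in the 4 Ctrl libraries of H3K9ac, with an interaction of -2.99 ± 0.318 kb (SE; adjusted p = 1.82e-06). Rab3a had 3.95, 3.75, 3.03 and 3.46 kb in the 4 FGR libraries, against 2.54, 2.66, 2.37 and 2.46 kb in the 4 Ctrl libraries of H3K9ac, with an interaction of -2.73 ± 0.312 kb (SE; adjusted p = 3.64e-06). Rab43, a Golgi Rab, had 4.52, 4.01, 4.31 and 3.96 kb in the 4 FGR libraries, against 2.92, 2.87, 3.29 and 3.04 kb in the 4 Ctrl libraries of H3K9ac, with an interaction of -1.99 ± 0.269 kb (SE; adjusted p = 1.79e-05). FGR and Ctrl did not overlap at these genes for H3K9ac. The 4 interactions stayed negative after quantile normalization, at -2.4 kb for Rab1b, -2.14 kb for Rab35, -1.66 kb for Rab3a and -0.657 kb for Rab43.

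**Figure D4:**
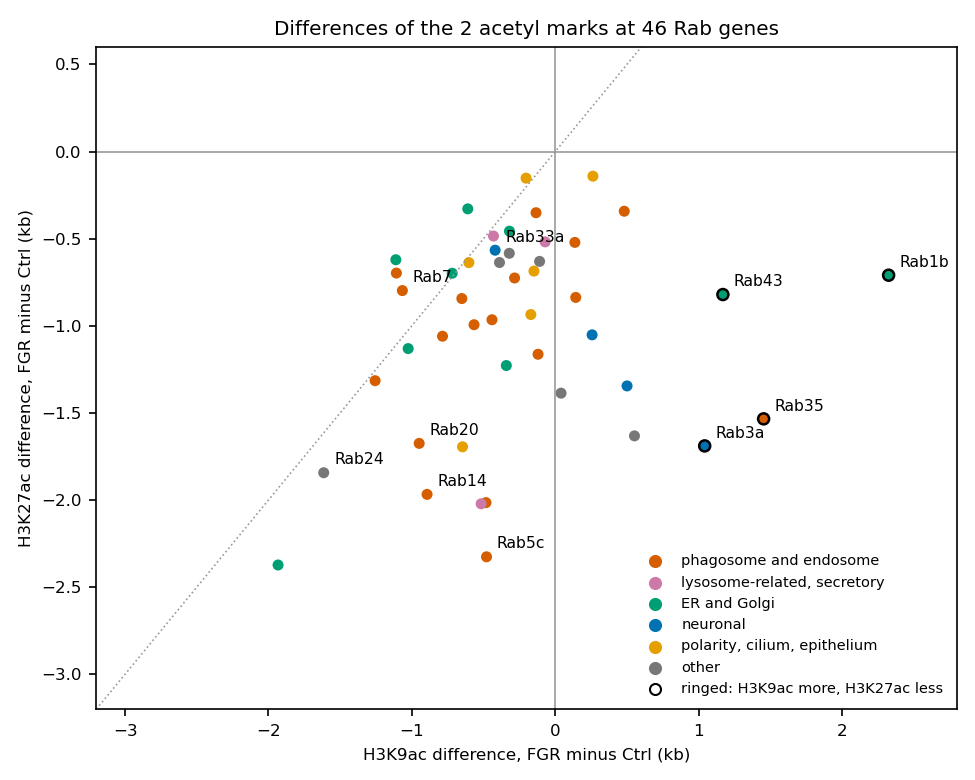
Difference in covered length, FGR minus Ctrl (kb), of H3K9ac (x axis) and H3K27ac (y axis) for the 46 Rab genes tested in both marks, coloured by role; the dotted line marks equal differences. All points lie below 0 on the y axis as deposited, and the ringed genes Rab1b, Rab35, Rab3a and Rab43 lie to the right of 0; after quantile normalization 11 members had longer H3K27ac in FGR, so the y directions do not hold for every gene.

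The longer H3K9ac of these 4 genes lay largely at the far end of the gene, away from the start. Within 2.5 kb of the Rab35 start it was 2.1 ± 0.29 kb in FGR and 1.99 ± 0.28 kb in Ctrl (SD, n = 4 each), and at the far end 1.38 ± 0.382 kb in FGR and 0 ± 0 kb in Ctrl. At Rab43 it was 2.89 ± 0.0464 kb in FGR and 2.76 ± 0.131 kb in Ctrl at the start, and 1.31 ± 0.241 kb in FGR and 0.275 ± 0.19 kb in Ctrl at the far end. These values are descriptions and carry no test of their own, and the windows of Rab3a, a short gene, overlap.

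Rab3a had 1.73 ± 0.306 kb in FGR and 1.94 ± 0.0845 kb in Ctrl at the start, and 1.82 ± 0.403 kb in FGR and 0.561 ± 0.0613 kb in Ctrl at the far end. With the start alone, its H3K9ac difference was -0.215 kb (adjusted p = 0.210), and with lists cut to equal length it was -0.334 kb (adjusted p = 0.182), so the call for Rab3a ended under both. Rab1b kept its call at the start alone (0.864 kb, adjusted p = 0.00196), and Rab43 lost it (0.138 kb, adjusted p = 0.191). Rab1b had 1.61 ± 0.278 kb in FGR and 0.148 ± 0.172 kb in Ctrl at the far end. Of these windows 3 are shared, Rab35 with Bicdl1, Rab3a with Mpv17l2 and Rab1b with Cnih2 and Klc2, and that of Rab43 is not.

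Rab5c showed both changes in H3K9ac. At its start it had 1.88 ± 0.37 kb in FGR and 3.02 ± 0.0839 kb in Ctrl, and at its far end 1.1 ± 0.243 kb in FGR and 0.43 ± 0.243 kb in Ctrl. Over the 44 members with a start in the table and more than 5 kb long, mean H3K9ac at the start was 1.32 ± 0.0760 kb in FGR and 1.57 ± 0.0315 kb in Ctrl (SD over 4 libraries each). At the far end the mean was 0.304 ± 0.0435 kb in FGR and 0.192 ± 0.0322 kb in Ctrl. The far-end mean was higher in FGR at 17 and lower at 6 of the 44 members. Over 13366 genes of all kinds, 35.4% were higher and 12.1% lower, so the Rab share of 38.6% was near that of all genes.

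Around the start, the marks had different shapes in the 2 groups. The start base itself was under an H3K27ac peak at 6 to 10 of 48 members in FGR libraries, against 33 to 36 members in Ctrl libraries. Over 17273 genes the share was 11.4 to 15.1% in FGR and 40.2 to 42.2% in Ctrl libraries. At some members, H3K27ac peaks lay within 1 kb on both sides while the start base was bare. These were 17 to 19 of 48 members in FGR libraries (35.4 to 39.6%) and 1 to 3 in Ctrl libraries (2.08 to 6.25%). Over all genes this split arrangement was found at 17.8 to 19.9% in FGR and 1.90 to 2.51% in Ctrl libraries.

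At 50 bases before the start, 14.6 ± 3.40% of Rab genes were under an H3K27ac peak in FGR and 69.8 ± 2.69% in Ctrl (SD over 4 libraries each). Over all genes the shares there were 12.2% in FGR and 38.6% in Ctrl. At 250 bases after the start, 54.7 ± 1.99% of Rab genes were covered in FGR and 74.5 ± 1.04% in Ctrl, against 32.1% and 44.8% of all genes. At 3050 bases after the start, 9.38 ± 4.96% of Rab genes were covered in FGR and 28.6 ± 3.56% in Ctrl, against 3.28% and 6.39% of all genes.

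H3K9ac held the start in both groups. Its peaks covered the start of 41 to 44 of 48 members in FGR and 34 to 37 in Ctrl libraries, against 53.3 to 57.3% of all genes in FGR and 44.2 to 45.8% in Ctrl. Where the start was covered, the peak reached a median of 786 to 858 bp into the gene in FGR and 1122 to 1196 bp in Ctrl libraries. H3K4me3 covered the start of 33 to 37 members in FGR and 16 to 17 in Ctrl (47.5 to 49.9% of all genes in FGR and 22.3 to 24.9% in Ctrl), and reached 1085 to 1268 bp into the gene in FGR, against 508 to 753 bp in Ctrl. Over all genes, H3K9ac reached 671 to 701 bp in FGR and 898 to 908 bp in Ctrl.

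**Figure D5:**
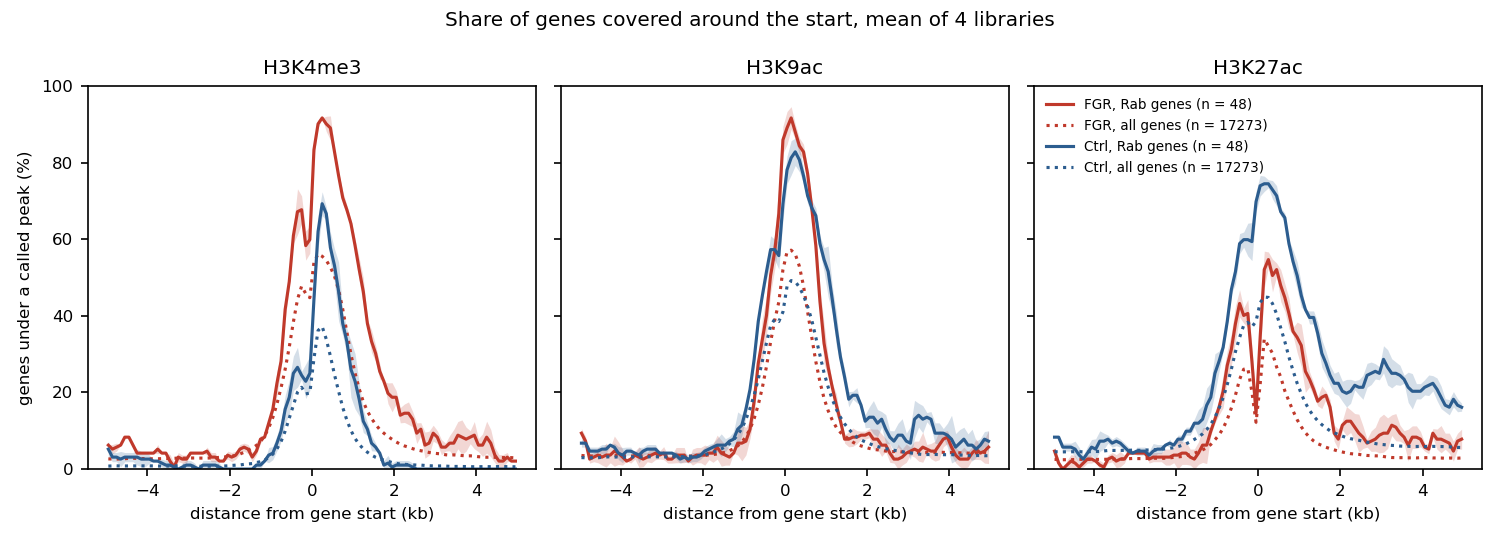
Percent of genes under a called peak at points every 100 bp by distance from the gene start (kb, negative before the start), as the mean of 4 libraries; solid lines are 48 Rab genes with SD shaded, dotted lines all 17273 genes, FGR red and Ctrl blue. At Rab genes, FGR H3K27ac dips to 14.6% just before the start, against 69.8% in Ctrl. Their H3K4me3 at 250 bases past the start stands at 91.7% in FGR and 69.3% in Ctrl. Over all genes these shares are 12.2% and 38.6% for H3K27ac, and 55.5% and 37.2% for H3K4me3.

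At a common threshold (−log10 q of at least 1.3), 0 of the 59 Rab genes had an H3K9me3 peak in any of the 3 FGR or 3 Ctrl broad lists. At this threshold the FGR lists kept 14008 to 16506 peaks and the Ctrl lists 70 to 78, so the Ctrl side could show little; of all genes, 1009 had a peak in any FGR list and 6 in any Ctrl list. As deposited, 0 members had a peak in FGR lists, while 33 had a peak in at least 1 Ctrl list and 15 in all 3 (25.4%, against 28.9% of all genes). The deposited FGR lists went down to a −log10 p of 3.42 and the Ctrl lists to 1.0. A test on them called 7 of 25 members shorter in FGR, against 35.0% of 10311 genes, which cannot be told apart from the threshold. Replicate 4 had narrow lists with 0 members in either group.

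Regulators of the Rab cycle were counted in the same way. For H3K4me3, the 6 carriers and prenylation factors tested, 25 of 25 GEFs, 26 of 27 GAPs and 37 of 37 effectors were longer in FGR. Of all genes tested for this mark, 95.5% were longer. After quantile normalization 2 carriers, 6 GEFs, 3 GAPs and 6 effectors were longer, and 0, 2, 5 and 5 were shorter. For H3K27ac, 5 of 6 carriers, 20 of 25 GEFs, 22 of 26 GAPs and 25 of 29 effectors were shorter. Of all genes tested for this mark, 81.6% were shorter, so the counts of both marks were near the background. After quantile normalization 0 carriers, 6 GEFs, 1 GAP and 4 effectors had longer H3K27ac, and 0, 3, 5 and 5 had shorter H3K27ac. H3K9ac was longer in FGR at 5 GEFs, 7 GAPs and 12 effectors and shorter at 11 of 27 GEFs, 8 of 28 GAPs, 8 of 38 effectors and 4 of 6 carriers. Of all genes 28.5% were longer and 30.0% shorter, while 18.5% of GEFs were longer and 40.7% shorter, and 0 carriers were longer. Whether these lists differ from other genes was not tested.

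By the smallest p, H3K4me3 was longer in FGR at Tbc1d10b, a GAP, with 4.17 ± 0.285 kb in FGR and 1.09 ± 0.0985 kb in Ctrl (SD, n = 4 each; adjusted p = 5.15e-07). Rims2, a Rab3 effector of the active zone, had 2.08 ± 0.194 kb in FGR and 0 ± 0 kb in Ctrl (SD, n = 4 each; adjusted p = 6.54e-07). Fyco1, a Rab7 effector that links late endosomes to kinesin, had H3K9ac of 1.08 ± 0.334 kb in FGR and 3.45 ± 0.144 kb in Ctrl (SD, n = 4 each; adjusted p = 1.38e-05). The other named H3K9ac genes were Tbc1d9, a GAP-domain protein that was shorter, and Dennd5b, a DENN-domain protein, and Rab11fip3, a Rab11 effector, that were longer.

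Tbc1d9 had 1.46 ± 0.192 kb in FGR and 3.13 ± 0.113 kb in Ctrl (SD, n = 4 each; adjusted p = 1.40e-05). Dennd5b had 1.19 ± 0.155 kb in FGR and 0 ± 0 kb in Ctrl (SD, n = 4 each; adjusted p = 2.79e-05). Rab11fip3 had 2.69 ± 0.142 kb in FGR and 1.45 ± 0.184 kb in Ctrl (SD, n = 4 each; adjusted p = 6.64e-05). The mark was thus at 0 in Ctrl at Dennd5b, and present in both groups at Tbc1d9 and Rab11fip3. For H3K27ac, the Rab5 effector Rabep1 had 0.915 ± 0.168 kb in FGR and 3.92 ± 0.412 kb in Ctrl (SD, n = 4 each; adjusted p = 3.40e-06). Mical1, a monooxygenase that binds Rab proteins and acts on actin, had 2.95 ± 0.116 kb in FGR and 4.92 ± 0.0694 kb in Ctrl (SD, n = 4 each; adjusted p = 1.57e-06), shorter in FGR like Rabep1.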

How the data were processed

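Per the submitters' processing notes, the tools were MACS2 2.2.7.1, Bowtie2 2.4.5, Trim Galore 0.6.5, DiffBind 3.12.0 and SAMtools 1.3.1 on build mm10, with no order given. The deposited peak lists give, for each peak, a score, a fold (ratio) over background, −log10 p and −log10 q values, and a summit offset; lists are per library. Of 34 samples, 32 had a list, and the 2 inputs had none and were not used. The score, fold and summit were not tested. Read depth is unknown.

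Covered length was summed per gene from peaks within 2.5 kb of either gene end (RefSeq). Genes with a peak in at least 2 libraries of a mark were tested with limma 3.58.1 (R 4.3.3, lmFit and eBayes, 4 against 4, no block, two-sided, Benjamini-Hochberg over all genes tested, threshold 0.05). H3K9me3 used broad lists of replicates 1 to 3 at −log10 q of at least 1.3. Starts were the most upstream RefSeq promoter of a gene. The fits were tested on simulated data. Named genes were, per mark, the 5 members with the smallest p in each direction past the threshold, listed Rab3, Rab5, Rab7 and macrophage Rabs, members without a peak, and 2 regulators per direction. Members and lists were chosen with earlier results of these data known. Alternatives were quantile normalization, equal list length, −log10 q of at least 3, a 1 kb window, gene start only, no gene filter, leaving out libraries, and a replicate block. Replicate numbers of the 2 groups did not deviate together across genes, a check that cannot show a shift of a whole library.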

Additional observations from a re-analysis of the deposited data

Results flagged for a closer look

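In 46 groups of 4 libraries examined for a library far from the other 3, 5 stood out by Dixon's criterion; chance flags about 1 in 20 groups. For H3K9ac at Rab7, FGR replicate 4 had 1.16 kb against 1.27 to 1.29 kb in the other FGR libraries, and Ctrl replicate 2 had 2.66 kb against 2.19 to 2.22 kb in the other Ctrl libraries. For H3K27ac at Rab35, Ctrl replicate 3 had 2.25 kb against 2.78 to 2.85 kb. The median H3K4me3 length over all members was 0.569 kb in 1 Ctrl library and 0.734 to 0.760 kb in the other 3. The median H3K27ac length was 2.09 kb in 1 Ctrl library and 2.03 kb in the other 3.

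The H3K27ac change differed from the H3K9ac change, by the interaction test with opposite calls, at Rab1b (-3.03 kb), Rab35 (-2.99 kb), Rab3a (-2.73 kb) and Rab43 (-1.99 kb).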

How the results depend on the processing

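Quantile normalization, which removes a shift common to all genes, changed most. H3K4me3 calls among Rab genes became 12 longer and 5 shorter of 54, and H3K9ac calls 7 longer and 19 shorter of 57. H3K27ac calls became 11 longer and 8 shorter of 46, and the interaction 19 above and 8 below 0. The shares of all genes are given above with each mark. Single genes turned: H3K4me3 to -0.340 kb at Rab14, -0.466 kb at Rab27a, -0.229 kb at Rab38, -0.309 kb at Rab3b, -0.480 kb at Rab3d and -0.197 kb at Rab7, and H3K27ac to 0.0226 kb at Rab11b, 0.896 kb at Rab20, 0.602 kb at Rab27a, 0.469 kb at Rab31, 0.664 kb at Rab32, 0.433 kb at Rab5a and 0.244 kb at Rab7. Rab3a H3K9ac turned to -0.334 kb with equal list length and -0.215 kb at the gene start alone. Over the 36 members with unshared windows, a choice made after seeing the data, 31 of 32 had longer H3K4me3, 11 of 34 shorter H3K9ac and 22 of 25 shorter H3K27ac. H3K9me3 lists as deposited gave 7 shorter members; the cause of these changes was not tested.

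Leaving out 1 library gave calls of 53 longer for H3K4me3, 9 to 13 longer and 19 to 22 shorter for H3K9ac, and 41 to 43 shorter for H3K27ac. For the interaction it gave calls of 18 to 22 below and 0 to 1 above 0, the 1 without Ctrl H3K9ac replicate 2. With the replicate number as a block, 53 H3K4me3, 10 longer and 19 shorter H3K9ac and 43 H3K27ac calls were made, and 22 interactions were called below 0. Across genes, same-numbered FGR and Ctrl libraries did not deviate together (correlations of -0.0209 to 0.0338), so the numbers were not taken as a pairing. These correlations cannot show a shift of a whole library. Replicate 4 had the fewest peaks in both groups for H3K9ac (54853 in FGR, 42220 in Ctrl) and H3K27ac (53492 in FGR, 45988 in Ctrl). For H3K4me3 this was so in FGR only. With replicate 4 left out of both groups, 5 single-gene results became weaker and 48 stayed the same. The 5 were the H3K9ac results of Rab32, Rab38, Rab3d, Rab5b and Rab5c. The lists hold no read counts, so depth cannot be set apart from covered length.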
